A study of Mus musculus with 145 samples.

Results

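A set of 10 genes of the NF-kB pathway that are known for feeding back on it was followed in mouse skin after a single exposure to ultraviolet light. They are the ligand gene Tnf, the receptor gene Tnfrsf1b, the regulators Birc3, Tnfaip3 and Zc3h12a, the inhibitor of kappa B genes Nfkbia and Nfkbiz, and the Rel family genes Relb, Nfkb1 and Nfkb2. The genes were taken from a list by symbol. The rule uses no measured value, but earlier results of these data were known when the genes were chosen. All 10 were found among the 55416 Ensembl identifiers of the count table and among the 18677 genes tested. Dorsal skin came from mice placed once under a canopy of tanning lamps (8 lamps, 100 W each, giving 96.4% UVA with 3.6% UVB) or from mice handled likewise without light (sham). The groups were sham and 5, 10, 20 and 40 mJ/cm2, each at 0, 6, 24, 48, 72 and 96 h after exposure, which makes 30 groups. Each of the 145 libraries is 1 animal, with 25 groups of 5 animals and 5 groups of 4 (20 mJ/cm2 at 48 h and the 4 irradiated groups at 96 h). No source used here states the strain, age or sex of the mice, and p-values below measure the spread between animals.

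NF-kB proteins are transcription factors held inactive in the cytoplasm by inhibitor of kappa B proteins until a signal from a receptor, such as those for TNF and interleukin 1, or from cell stress releases them. Among the genes they switch on are some of their own regulators. Nfkbia encodes IkBa, which takes NF-kB back out of the nucleus, and Tnfaip3 encodes A20, a ubiquitin-editing enzyme that shuts off signalling below the TNF receptor. Zc3h12a encodes Regnase-1, an endonuclease that degrades messenger RNAs of inflammatory genes, and Birc3 encodes cIAP2, a ubiquitin ligase of the TNF receptor complex. Nfkbiz encodes IkBz, a nuclear protein that is needed for part of the targets and is known in keratinocytes as a mediator of interleukin 17 responses. Nfkb1 and Nfkb2 encode p105 and p100, the precursors of the p50 and p52 subunits, and Relb encodes the partner of p52 in the non-canonical branch. Tnfrsf1b encodes TNF receptor 2, which is found mainly on immune and endothelial cells. In skin, ultraviolet light is known to release TNF and interleukin 1 from keratinocytes.

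The libraries held between 0.18 and 64.59 M counts, where M stands for mega (median 11.08 M), and 2 libraries fell below 1 M. The shallow ones were replicate 5 of 10 mJ/cm2 at 6 h and replicate 5 of 20 mJ/cm2 at 0 h, so neither belongs to a 40 mJ/cm2 or sham group. Both still enter the fits of their times, which take the spread and the title ending term from all 5 doses. The share of counts on mitochondrial genes was 34.8% in sham replicate 3 at 0 h and between 1.61% and 16.3% in every other library. Muscle genes were present in all groups, so the dorsal samples held skeletal muscle as well as skin. In bulk tissue fewer cells of a type and less RNA per cell cannot be told apart. Titles ended in R1_001 for 71 libraries and in R1 for 74, a difference that no source used here explains, and the title ending was a term in the fits.

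The promoter windows of 3 of the genes are shown because they are the ones that hold the canonical NF-kB binding consensus, a motif of 10 bases named here without its letters. Windows run from 250 bases before to 50 bases after the start of the gene and come from RefSeq on GRCm38.p6, while the counts were made on GRCm39. RefSeq windows were at hand for 7 of the 10 genes (Nfkbiz, Relb and Nfkb1 had none), 10 windows in all. The consensus, searched on both strands, was found in windows of 3 of the 7 genes, Nfkbia, Tnfaip3 and Nfkb2. These are 5 of the 10 windows, but the second and the third Nfkb2 windows overlap and share a match. It was found in 1480 of 32851 windows of all genes (4.51%). The windows below are given 5′ to 3′ on the strand of the gene, with the matching bases in capitals, as chr12:55492598-55492897 (minus strand) for Nfkbia, chr10:19015361-19015660 (minus strand) for Tnfaip3 and chr19:46304487-46304786 (plus strand) for the first of 3 Nfkb2 windows.
Nfkbia: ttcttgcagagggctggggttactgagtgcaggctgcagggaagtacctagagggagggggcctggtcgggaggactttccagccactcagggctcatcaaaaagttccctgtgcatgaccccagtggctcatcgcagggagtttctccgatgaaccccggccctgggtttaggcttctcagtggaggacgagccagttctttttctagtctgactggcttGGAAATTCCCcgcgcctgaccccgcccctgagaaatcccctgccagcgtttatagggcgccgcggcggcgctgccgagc
Tnfaip3: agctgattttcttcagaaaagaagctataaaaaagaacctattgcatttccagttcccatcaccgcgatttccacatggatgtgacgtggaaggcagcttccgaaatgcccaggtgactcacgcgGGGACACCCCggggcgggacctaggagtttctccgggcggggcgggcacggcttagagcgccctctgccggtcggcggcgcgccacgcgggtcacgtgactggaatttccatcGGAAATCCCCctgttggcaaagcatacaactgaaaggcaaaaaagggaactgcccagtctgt
Nfkb2: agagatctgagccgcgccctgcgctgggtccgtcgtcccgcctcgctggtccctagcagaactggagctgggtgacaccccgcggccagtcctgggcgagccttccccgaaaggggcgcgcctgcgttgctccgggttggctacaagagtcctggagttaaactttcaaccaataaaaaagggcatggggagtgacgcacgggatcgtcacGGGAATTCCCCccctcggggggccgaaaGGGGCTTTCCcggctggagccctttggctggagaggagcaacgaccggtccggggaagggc
Counted from the gene's start, the match in Nfkbia begins at position -29, and the 2 matches in Tnfaip3 begin at -125 and -12. In Nfkb2 overlapping matches on both strands begin at -39 and -38 and another begins at -11. A match describes letters in the window and does not show that a factor was bound.

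In sham skin the 10 genes spanned a wide range of levels. On the scale of CPM (counts scaled to a library of 1 M) per kilobase of spliced length, over the 30 sham animals, Nfkbia was highest at 47.2 ± 16.8 (SD). Birc3 followed at 9.11 ± 1.04, Nfkbiz at 9.10 ± 5.42 and Nfkb1 at 7.45 ± 1.2. Next came Tnfrsf1b at 5.72 ± 2.0, Tnfaip3 at 4.98 ± 2.75, Nfkb2 at 4.56 ± 2.04, Zc3h12a at 3.59 ± 1.42 and Relb at 2.92 ± 1.15. Tnf was lowest at 0.936 ± 0.439, with a median of 17 counts per library, so its values carry the largest counting error. Nfkbia lay above and Tnf below their neighbours by more than the SDs. Nfkb1 and Tnfrsf1b, next to each other in this order, also differed by more than the SD of Nfkb1 but by less than that of Tnfrsf1b, and Nfkbiz lay above the SD of Nfkb1, which was itself within the wide SD of Nfkbiz. The other neighbours lay within each other's SDs. The spliced length joins all annotated exons of a gene, which gave 12061 bases for Nfkb1 and 5009 for Birc3. Their longest coding transcripts had 4117 and 2909 bases. On those lengths Nfkb1 would come before Birc3, so the order depends on the length chosen.

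The genes also differed in how much animals of 1 group varied. Within groups the SD of log2 CPM was 0.23 for Birc3 and 0.25 for Nfkb1, the steadiest of the 10, and 0.36 for Nfkbia. It was 0.59 for Tnfrsf1b, 0.61 for Nfkbiz, 0.84 for Nfkb2, 0.88 for Tnf, 0.93 for Relb, 0.94 for Tnfaip3 and 1.22 for Zc3h12a. The Zc3h12a spread exceeded that of 97% of the 2144 genes of like level, and the Birc3 spread exceeded that of 5.22% of 2722 such genes. These SDs include the 2 libraries below 1 M counts. Counts of 0 occurred in 2 libraries for Zc3h12a and Tnf and in 1 for Tnfaip3 and Relb. For these genes in that order, r with log2 depth was 0.42, 0.40, 0.45 and 0.38 over all 145 libraries. Over the 143 deeper libraries it was 0.01, 0.05, 0.04 and 0.10. The part of depth in their SDs was not tested. A fold change of a given size was therefore easier to resolve for Birc3, Nfkb1 and Nfkbia than for Zc3h12a, Tnfaip3, Relb and Tnf.

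Over the 6 sham groups none of the 10 genes changed with time (edgeR quasi-likelihood F test, Benjamini-Hochberg over 18677 genes), against 4.95% of all genes called. With DESeq2 the count was also 0, against 6.86% of all genes. At an unadjusted p under 0.05 the count was 1, against 16.4% of all genes, and that gene was Nfkbia. Its sham means were 108 ± 48.7 CPM at 0 h and 70.5 ± 16.7, 67.0 ± 14.0, 65.7 ± 12.0, 80.1 ± 18.4 and 63.9 ± 13.9 CPM at 6, 24, 48, 72 and 96 h (n = 5 each, adjusted p = 0.0639). With the muscle marker level as a covariate the edgeR test called Nfkbia, at an adjusted p of 0.0169. One animal with 195 CPM, the library with the mitochondrial share of 34.8%, sat far above the other 4 of the 0 h group, which had 76.4 to 96.6 CPM.

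After exposure the highest of the 30 group means lay in a 40 mJ/cm2 group for 8 of the 10 genes. For Nfkbiz, Tnfaip3, Zc3h12a and Relb it was the 6 h group, with 84.7 ± 12.3, 54.4 ± 22.3, 23.6 ± 12.0 and 17.5 ± 8.01 CPM. For Nfkb1, Tnfrsf1b and Nfkb2 it was the 48 h group, with 110 ± 6.34, 41.5 ± 12.1 and 37.2 ± 5.34 CPM. Tnf had its highest group mean at 72 h, 4.17 ± 5.92 CPM, where the SD exceeds the mean. The exceptions were Nfkbia, highest at 10 mJ/cm2 at 6 h with 114 ± 44.0 CPM, and Birc3, highest at 20 mJ/cm2 at 0 h with 59.1 ± 9.33 CPM. The lowest group means were 0.815 ± 0.505 CPM for Tnf (10 mJ/cm2, 48 h), 7.37 ± 5.41 for Zc3h12a (40 mJ/cm2, 0 h) and 8.39 ± 4.87 for Relb (sham, 0 h). They were 12.8 ± 2.25 CPM for Tnfrsf1b (10 mJ/cm2, 0 h), 14.4 ± 7.93 for Nfkb2 (10 mJ/cm2, 0 h) and 21.3 ± 5.02 for Tnfaip3 (20 mJ/cm2, 24 h). For Nfkbiz the lowest mean was 27.0 ± 13.3 CPM and for Birc3 31.4 ± 4.75 CPM, both at 20 mJ/cm2 at 48 h, while Nfkbia had 57.8 ± 18.5 CPM at 40 mJ/cm2 at 72 h and Nfkb1 71.7 ± 14.7 CPM at 40 mJ/cm2 at 0 h. These extremes are a description and were not tested as such.

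**Figure D1:**
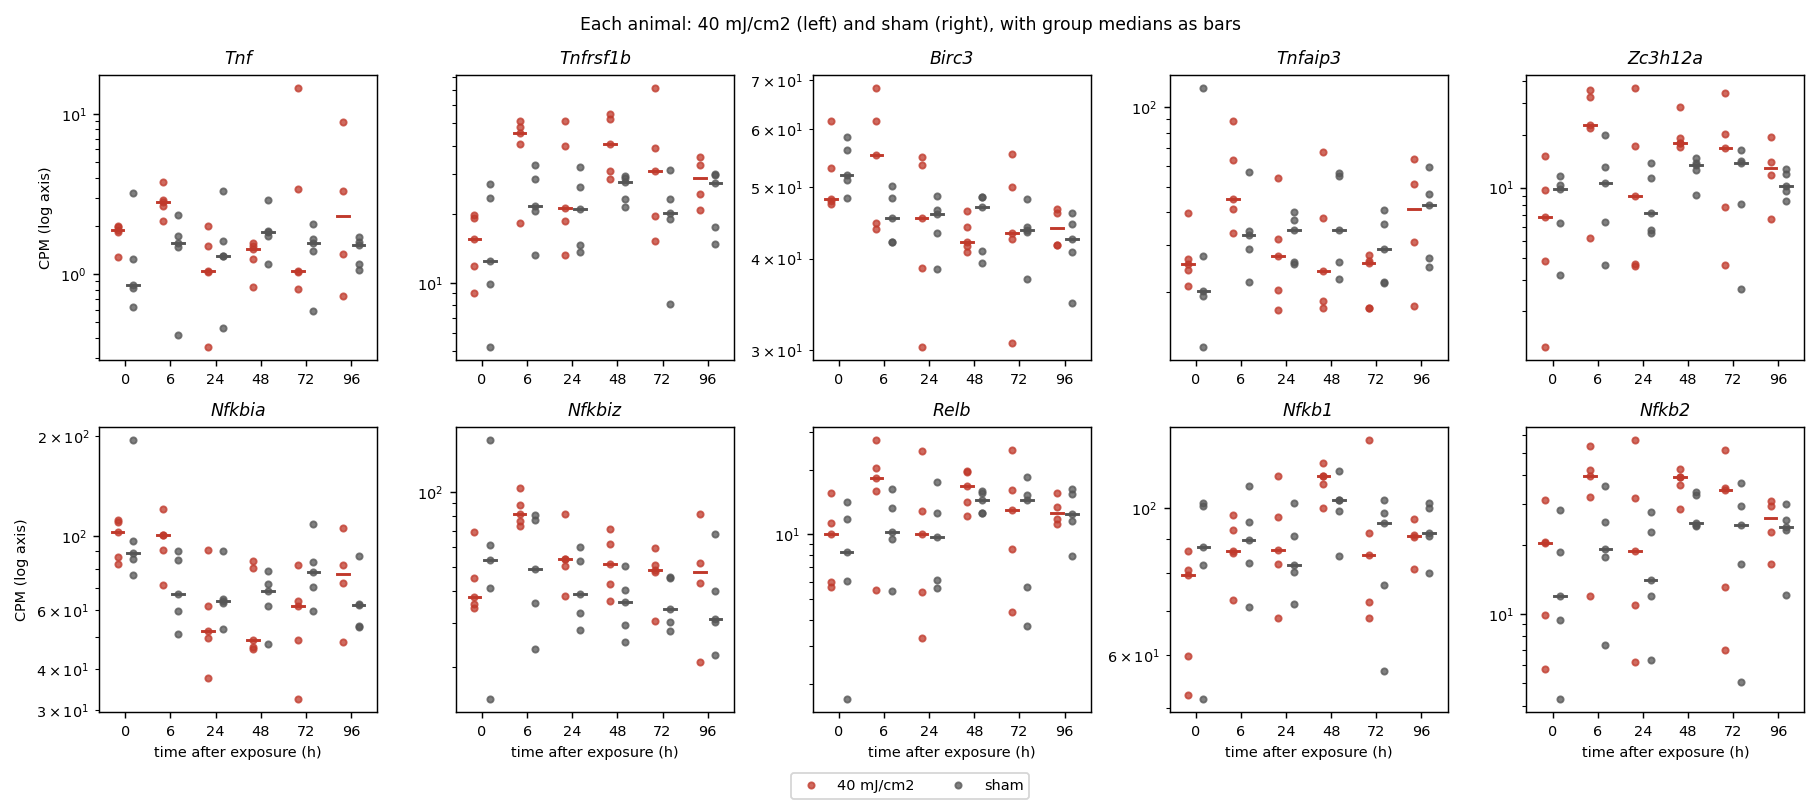
Level of each of the 10 genes (CPM, log axis) in each animal of the 40 mJ/cm2 groups and of the sham groups at each time in hours. Points are animals and bars group medians. At 6 h the 40 mJ/cm2 median exceeds the sham median for all genes but Nfkb1, and at 48 h Zc3h12a is the only one of the 10 whose groups do not overlap, as is the case for 12.1% of all genes tested.

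The comparison of 40 mJ/cm2 with the sham animals of the same time asks whether the highest dose moved these genes. None of the 10 passed the test at any of the 6 times (edgeR quasi-likelihood F test with Benjamini-Hochberg adjustment within each comparison). Of all genes tested, 0% passed at 0 h, 4.9% at 6 h, 2.92% at 24 h, 7.73% at 48 h, 1.26% at 72 h and 0.118% at 96 h. DESeq2 also called none of the 10 at any time, while it called 0.285%, 9.18%, 6.84%, 10.2%, 2.61% and 0.516% of all genes at the 6 times in order. At an unadjusted p under 0.05 the members past the threshold were 0 of 10 at 0 h (4.46% of all genes), 5 at 6 h (17.4%), 0 at 24 h (16.4%), 1 at 48 h (19.9%), 1 at 72 h (11%) and 1 at 96 h (4.74%). The estimates were positive for 3, 9, 7, 6, 8 and 9 of the 10 genes from 0 to 96 h. Their median log2 fold change was -0.09 at 0 h, 0.71 at 6 h, 0.09 at 24 h, 0.17 at 48 h, 0.29 at 72 h and 0.19 at 96 h, beside medians over all genes of 0.01, 0.05, 0.05, -0.01, 0.03 and -0.02.

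**Figure D2:**
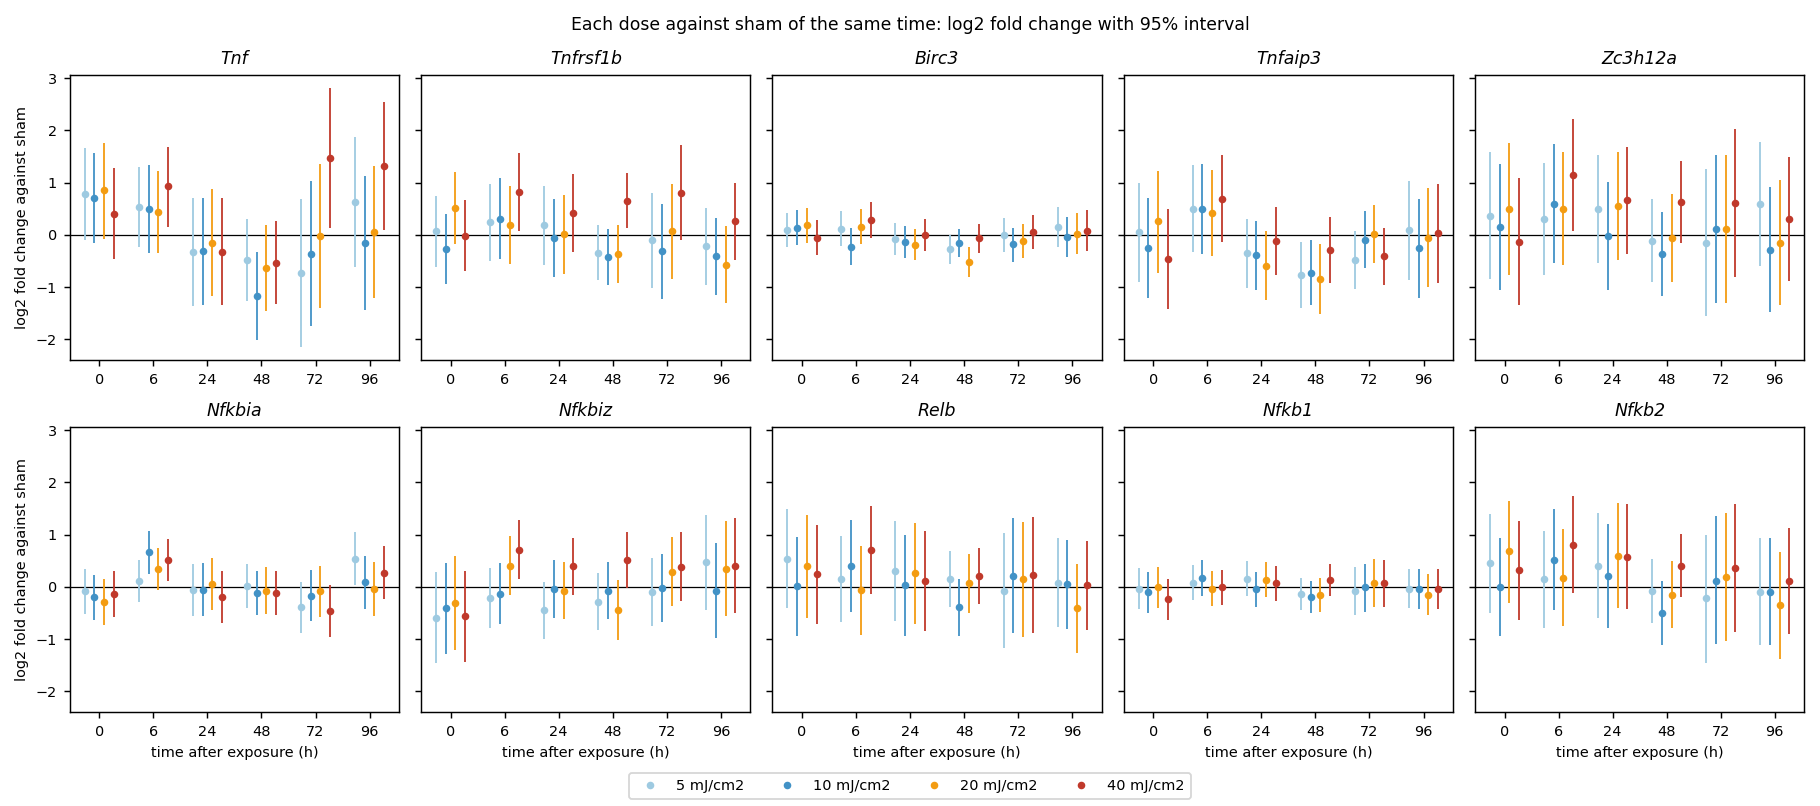
Log2 fold change against sham of the same time for each of the 10 genes at 5, 10, 20 and 40 mJ/cm2 and each time in hours. Bars are 95% intervals. At 40 mJ/cm2 and 6 h 9 of 10 estimates lie above 0, and none of the points passed the adjusted test.

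At 6 h the ligand and receptor genes lay above the sham range in most irradiated animals. Tnf measured 3.74, 2.89, 2.8, 2.14 and 2.68 CPM at 40 mJ/cm2, against 1.47, 0.417, 2.35, 1.72 and 1.56 CPM in sham skin. All but 1 of the irradiated animals exceeded every sham animal. Its log2 fold change was 0.93 ± 0.37 (SE, 95% interval 0.16 to 1.69, edgeR adjusted p = 0.179). Tnfrsf1b measured 45.6, 51.2, 40.6, 18.2 and 48.4 CPM at 40 mJ/cm2, against 28.5, 21.8, 33.0, 13.3 and 20.6 CPM in sham skin. Here too 4 of 5 irradiated animals lay above the sham range, and the fifth lay inside it. For Tnfrsf1b the log2 fold change was 0.83 ± 0.36 (0.08 to 1.57, adjusted p = 0.228).

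Of the regulators at 6 h, the endonuclease gene Zc3h12a had the largest estimate of the 10 genes and a wide interval. It measured 35.9, 21.7, 32.5, 5.19 and 22.5 CPM at 40 mJ/cm2, against 20.0, 6.39, 13.1, 3.64 and 10.6 CPM in sham skin. Replicate 4 was low in both groups, and the other 4 irradiated animals lay above all sham animals. The log2 fold change was 1.14 ± 0.52 (0.07 to 2.21, adjusted p = 0.258). Tnfaip3, the A20 gene, measured 63.1, 45.1, 41.3, 33.3 and 89.2 CPM at 40 mJ/cm2, against 32.8, 21.7, 28.9, 33.9 and 57.0 CPM in sham skin, so the groups overlapped widely. Its log2 fold change was 0.69 ± 0.40 (adjusted p = 0.408). Birc3, the cIAP2 gene, measured 43.9, 61.6, 44.8, 55.3 and 68.4 CPM at 40 mJ/cm2, against 42.2, 42.2, 48.4, 50.3 and 45.4 CPM in sham skin, a log2 difference of 0.29 ± 0.17 (adjusted p = 0.393).

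Both inhibitor of kappa B genes at 6 h had positive estimates with intervals above 0. Nfkbia measured 121, 71.5, 101, 90.8 and 101 CPM at 40 mJ/cm2, against 66.9, 51.0, 59.5, 84.7 and 90.3 CPM in sham skin. Only 1 irradiated animal fell inside the sham range. For Nfkbia the log2 fold change was 0.51 ± 0.20 (0.11 to 0.92, adjusted p = 0.15). Nfkbiz measured 76.2, 73.1, 81.6, 88.3 and 104 CPM at 40 mJ/cm2, against 36.0, 23.5, 49.1, 77.1 and 81.1 CPM in sham skin. The irradiated animals were close together at the upper end of a widely spread sham group. Nfkbiz had a log2 fold change of 0.71 ± 0.28 (0.15 to 1.28, adjusted p = 0.16).

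Among the Rel family genes at 6 h, Relb measured 27.6, 15.9, 20.4, 5.5 and 18.2 CPM at 40 mJ/cm2, against 16.2, 9.45, 13.2, 5.43 and 10.2 CPM in sham skin (log2 fold change 0.70 ± 0.41, adjusted p = 0.402). Nfkb2 measured 53.8, 32.3, 42.2, 12.0 and 39.8 CPM at 40 mJ/cm2, against 36.0, 19.2, 25.1, 7.36 and 17.6 CPM in sham skin (0.81 ± 0.45, 95% interval -0.12 to 1.74, adjusted p = 0.377). In both genes replicate 4 of each group was the lowest animal. Nfkb1 measured 97.8, 85.6, 86.3, 72.8 and 92.9 CPM at 40 mJ/cm2, against 108, 89.5, 95.5, 70.9 and 82.6 CPM in sham skin. The groups coincided, with a log2 difference of -0.01 ± 0.16 and an interval of -0.35 to 0.33 that leaves room for changes of up to about that size. Replicate 4 of both groups also had the highest mitochondrial share of its group, 8.35% at 40 mJ/cm2 and 13.5% in sham skin. With the mitochondrial share as a covariate, an alternative added after seeing the data, the 6 h log2 fold changes were 0.69 for Zc3h12a, 0.49 for Tnfrsf1b, 0.41 for Tnfaip3, 0.37 for Nfkb2 and 0.32 for Relb, each lower than without it by over 1.5 times. Those of Tnf (0.82), Nfkbiz (0.77), Nfkbia (0.49) and Birc3 (0.30) moved less, that of Nfkb1 was -0.11, and none of the 10 was called.

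The 6 h estimates kept their sign in both title endings for all genes but Nfkb1 (-0.11 in R1_001 and 0.11 in R1 libraries). Within the R1_001 and the R1 libraries the log2 fold changes were 1.14 and 0.56 for Tnf, 0.73 and 0.97 for Tnfrsf1b, 1.20 and 0.96 for Zc3h12a and 0.85 and 0.43 for Tnfaip3. They were 0.19 and 0.37 for Birc3, 0.73 and 0.13 for Nfkbia, 1.10 and 0.28 for Nfkbiz, 0.72 and 0.60 for Relb and 0.69 and 1.05 for Nfkb2. With replicates 4 and 5 alone in the R1 part of either group, the within-ending values are descriptions. Leaving out 1 animal at a time brought no gene past the threshold at 6 h, and the lowest adjusted p so reached was 0.0984, for Nfkbiz.

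At 48 h, when more genes overall were called than at any other time, the estimates of the 10 genes went in both directions. The receptor gene Tnfrsf1b measured 31.0, 28.5, 52.3, 55.1 and 40.5 CPM at 40 mJ/cm2, against 29.4, 23.2, 28.8, 27.7 and 21.6 CPM in sham skin. All but 1 of the irradiated animals lay above the whole sham group. The log2 fold change was 0.65 ± 0.25 (0.13 to 1.18, adjusted p = 0.13). The level of monocyte and macrophage markers (mean log2 CPM) in the same animals was 6.23, 5.71, 6.79, 6.67 and 6.42 at 40 mJ/cm2, against 5.25, 5.34, 5.78, 5.72 and 5.29 in sham skin, and its part in the result was not tested. The ligand gene Tnf measured 1.43, 0.836, 1.57, 1.49 and 1.25 CPM at 40 mJ/cm2, against 1.85, 1.16, 1.84, 2.91 and 1.73 CPM in sham skin, with a log2 difference of -0.53 ± 0.38 (adjusted p = 0.516).

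Zc3h12a was the only one of the 10 genes whose 40 mJ/cm2 and sham animals did not overlap, and this happened at 48 h only, when 12.1% of all genes tested had groups that did not overlap. A count of 1 in 10 is near that share. At 0, 6, 24, 72 and 96 h the groups did not overlap in 1.45%, 7.57%, 4.34%, 1.83% and 3.06% of all genes and in 0 of the 10. It measured 28.8, 19.0, 18.0, 18.0 and 17.0 CPM at 40 mJ/cm2, against 13.5, 12.6, 9.14, 14.8 and 13.8 CPM in sham skin. The means were 20.1 ± 4.87 and 12.8 ± 2.18 CPM, and the log2 fold change in the fit of all 5 doses was 0.63 ± 0.38 (adjusted p = 0.41). In a fit of these 2 groups alone, which does not take the spread from the other doses, the log2 fold change was 0.66 with an adjusted p of 0.0167. The same 2-group fit called Tnfrsf1b (0.66, adjusted p = 0.0171) and Nfkb2 (0.44, adjusted p = 0.0495). It also called more of all genes than the fit of all 5 doses, by a share not given here. Nfkb2 passed in it at an edgeR unadjusted p of 0.00807. In the fit of all 5 doses Cxcl2, at an edgeR unadjusted p of 0.00341, had an adjusted p of 0.0459.

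The other regulators did not separate at 48 h. Tnfaip3 measured 67.7, 24.0, 38.1, 18.5 and 17.3 CPM at 40 mJ/cm2, against 34.4, 56.4, 25.9, 22.3 and 54.8 CPM in sham skin, so the irradiated group held both the highest and the lowest animals. Its log2 difference was -0.29 ± 0.30 (adjusted p = 0.704). Birc3 measured 41.6, 42.2, 44.2, 46.4 and 40.8 CPM at 40 mJ/cm2, against 41.0, 39.4, 47.0, 48.5 and 48.6 CPM in sham skin (-0.06 ± 0.13, adjusted p = 0.878). With this small SE, the Birc3 data set a narrow bound on any change at that dose and time.

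Of the inhibitor genes at 48 h, Nfkbiz measured 70.9, 51.6, 62.1, 36.5 and 43.0 CPM at 40 mJ/cm2, against 40.5, 36.3, 29.3, 25.2 and 50.7 CPM in sham skin. In it 3 irradiated animals stood above the sham range, and the log2 fold change was 0.52 ± 0.26 (-0.02 to 1.05, adjusted p = 0.274). Nfkbia measured 84.1, 45.9, 80.3, 48.9 and 46.4 CPM at 40 mJ/cm2, against 72.0, 68.7, 47.4, 61.6 and 78.8 CPM in sham skin (-0.11 ± 0.20, adjusted p = 0.86). Of its irradiated animals 2 were above the sham range, 2 below it and 1 inside.

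Of the Rel family genes at 48 h, Nfkb2 measured 42.6, 28.5, 39.4, 39.3 and 36.3 CPM at 40 mJ/cm2, against 33.9, 24.2, 24.8, 32.7 and 24.1 CPM in sham skin (0.41 ± 0.29, adjusted p = 0.505). Relb measured 16.7, 12.1, 19.4, 19.7 and 14.1 CPM at 40 mJ/cm2, against 15.9, 12.6, 12.6, 15.6 and 14.4 CPM in sham skin (0.21 ± 0.26, adjusted p = 0.767). Nfkb1 measured 112, 100, 109, 117 and 112 CPM at 40 mJ/cm2, against 99.0, 103, 103, 114 and 84.6 CPM in sham skin (0.13 ± 0.15, adjusted p = 0.748). Nfkb2 was above all sham animals in 4 of 5 irradiated animals, while Relb and Nfkb1 overlapped more.

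Muscle marker levels also differed between these groups at 48 h. Of 15 skeletal muscle markers, 8 fell at 40 mJ/cm2 at 48 h and 1 at 24 h, beside 3.76% and 1.26% of all genes. The summed level of the 15 at 48 h was 17700 to 31100 CPM at 40 mJ/cm2, against 38800 to 63700 CPM in sham skin, with none of them at 0. With the muscle marker level as a covariate, 4 of the 10 genes were called at 48 h: Zc3h12a (log2 fold change 1.89, adjusted p = 0.00195), Nfkb2 (1.37, 0.00269), Tnfrsf1b (1.35, 0.00224) and Relb (0.94, 0.0174). The same 4 genes were called at 24 h under that covariate, Zc3h12a at 1.52, Nfkb2 at 1.49, Relb at 1.04 and Tnfrsf1b at 1.03, and Tnfrsf1b was called at 72 h at 1.6. The muscle level itself differs between the groups, so this fit and the one without it answer different questions. At 24 and 48 h the fit with the covariate also called more of all genes, by a share not given here. At 24 h Relb passed in it at an edgeR unadjusted p of 0.00856 (adjusted 0.0398). Without the covariate the muscle marker Tnnt3, at an edgeR unadjusted p of 0.00129, had an adjusted p of 0.0482. The mitochondrial share of counts as a covariate was an alternative added after seeing the data. With it Nfkbiz was the only one of the 10 genes called at 48 h (0.75, edgeR unadjusted p = 0.00541, adjusted p = 0.0489). The estimates of Zc3h12a, Nfkb2 and Relb were then 0.18, -0.01 and -0.17. This fit too called more of all genes than the one without it, by a share not given here. The mitochondrial share was 2.14% to 3.63% at 40 mJ/cm2 and 3.15% to 5.87% in sham skin at 48 h.

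At 72 and 96 h the ligand gene Tnf stood out through single animals. At 72 h it measured 3.4, 0.804, 1.04, 14.6 and 1.03 CPM at 40 mJ/cm2, against 1.56, 1.66, 0.591, 2.07 and 1.39 CPM in sham skin. Replicate 4 was far above the next animal, and 3 of the 5 irradiated animals lay inside the sham range. The log2 fold change was 1.48 ± 0.65 (0.13 to 2.82, adjusted p = 0.397), and without replicate 4 of 40 mJ/cm2 it was 0.18. In 1 fit of all 145 libraries Tnf was called at 72 h (1.53, adjusted p = 0.0474). The level of neutrophil markers (mean log2 CPM) in the same 40 mJ/cm2 animals was 4.28, 1.31, 0.88, 5.09 and 0.47, and in sham skin it lay between -0.7 and 0.38. The animals with the most Tnf were thus those with the highest neutrophil marker level, and the part of that in the result was not tested.

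At 96 h Tnf measured 3.3, 1.33, 0.726 and 8.94 CPM at 40 mJ/cm2, against 1.15, 1.58, 1.51, 1.06 and 1.71 CPM in sham skin. The first and the fourth irradiated animals were above every sham animal and the third was below. At this time the log2 fold change was 1.32 ± 0.59 (edgeR adjusted p = 0.98), and it ran from 0.20 to 1.65 when single animals were left out. The neutrophil marker level of the 40 mJ/cm2 animals was 1.58, 1.3, 0.12 and 3.6 in the same order, and its part in the result was not tested. The other 9 genes had estimates between -0.46 (Nfkbia) and 0.81 (Tnfrsf1b) at 72 h and between -0.04 (Nfkb1) and 0.41 (Nfkbiz) at 96 h, none of them called.

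At 0 and 24 h no estimate at 40 mJ/cm2 had an unadjusted p under 0.05 or was called. At 0 h the estimates ran from -0.56 ± 0.42 for Nfkbiz to 0.40 ± 0.42 for Tnf. Sham replicate 5 had 119 CPM of Tnfaip3 and sham replicate 3 had 162 CPM of Nfkbiz at that time, and without single animals the estimate ran from -0.72 to 0.49 for Tnfaip3 and from -0.84 to 0.03 for Nfkbiz. At 24 h the estimates ran from -0.32 ± 0.49 for Tnf to 0.66 ± 0.50 for Zc3h12a, and that of Nfkb2 was 0.57, beside 0.63 for Zc3h12a and 0.41 for Nfkb2 at 48 h. Zc3h12a averaged 14.1 ± 13.9 CPM at 40 mJ/cm2 and 8.72 ± 3.69 CPM in sham skin at 24 h, with the SD of the irradiated group nearly as large as its mean.

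The lower doses were compared with the same sham animals, so the comparisons at 1 time are not independent. None of the 10 genes passed the edgeR test at 5, 10 or 20 mJ/cm2 at any time. Over the 6 times together, 0.165% of all genes were called at 20 mJ/cm2, 0% at 10 mJ/cm2 and 0% at 5 mJ/cm2. DESeq2 called 1 member at 20 mJ/cm2 (Birc3 at 48 h) against 1.51% of all genes, none at 10 mJ/cm2 against 0.0348%, and none at 5 mJ/cm2 against 0.00822%. At an unadjusted p under 0.05 there were 2 of 60 gene and time combinations at 5 mJ/cm2 (3.97% of all), 3 at 10 mJ/cm2 (3.48%) and 2 at 20 mJ/cm2 (7.98%). At 48 h the estimates were positive for 2, 0 and 1 of the 10 genes at 5, 10 and 20 mJ/cm2, with medians of -0.20, -0.38 and -0.25. Over all genes 50.8%, 50.4% and 51.4% were positive at these doses, with medians of 0.01, 0 and 0.02.

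Birc3 at 20 mJ/cm2 and 48 h was the lower-dose value nearest to the threshold. It measured 35.1, 32.8, 33.3 and 24.4 CPM at 20 mJ/cm2, against 41.0, 39.4, 47.0, 48.5 and 48.6 CPM in sham skin. The groups did not overlap, as in 5.15% of all genes tested at this dose and time. The means were 31.4 ± 4.75 (n = 4) and 44.9 ± 4.37 CPM (n = 5), with a log2 fold change of -0.52 ± 0.14 (-0.81 to -0.23, edgeR adjusted p = 0.0728). DESeq2 called it, with an adjusted p of 0.00898, as did the fits without the title ending (0.0495), with all libraries in 1 fit (0.0465) and with the muscle level as a covariate (0.0207). The 40 mJ/cm2 animals, at 40.8 to 46.4 CPM, lay inside the sham range at that time.

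Tnfaip3 had estimates below 0 at 48 h at all 3 lower doses, none of them called. It averaged 22.7 ± 5.10 CPM at 5 mJ/cm2, 23.2 ± 1.94 CPM at 10 mJ/cm2 and 22.0 ± 13.9 CPM at 20 mJ/cm2, against 38.8 ± 16.0 CPM in sham skin. The log2 differences were -0.77 ± 0.30 (adjusted p = 0.937), -0.72 ± 0.30 (0.961) and -0.84 ± 0.32 (0.154). Without replicate 1 of 20 mJ/cm2, at 42.9 CPM beside 14.4 to 16.0 CPM in the other 3, the difference at that dose was -1.18 with an adjusted p of 0.038. All 3 differences share the sham group, in which 2 of 5 animals had 56.4 and 54.8 CPM. Tnf at 10 mJ/cm2 and 48 h averaged 0.815 ± 0.505 CPM, against 1.90 ± 0.635 CPM in sham skin (-1.17 ± 0.41, adjusted p = 0.961).

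Nfkbia had its highest group mean at 10 mJ/cm2 and 6 h, where it measured 70.1, 87.1, 117, 109 and 185 CPM, against 66.9, 51.0, 59.5, 84.7 and 90.3 CPM in sham skin. The last irradiated value comes from the library of 0.18 M counts and rests on 34 counts. The log2 fold change was 0.66 ± 0.20 (edgeR adjusted p = 0.503). At 5 mJ/cm2 and 96 h Nfkbia averaged 92.9 ± 13.4 CPM (n = 4), against 63.9 ± 13.9 CPM in sham skin (n = 5), a log2 difference of 0.54 ± 0.24 (adjusted p = 0.522).

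Whether a gene grew with dose among irradiated animals was tested as a slope over log2 dose from 5 to 40 mJ/cm2, without the sham animals. Nfkbiz at 6 h was the only one of the 60 gene and time combinations called (1.14% of all genes over the 6 times together, and 1.42% of all genes at 6 h). At an unadjusted p under 0.05 there were 6 of 60, against 8.6% of all genes. DESeq2 called 2 of 60, against 2.46%, and those were Nfkbiz at 6 h and Tnfrsf1b at 48 h.

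At 6 h Nfkbiz measured 36.0, 52.5, 55.3, 36.5 and 43.8 CPM at 5 mJ/cm2 and 38.3, 56.5, 54.4, 39.6 and 38.1 CPM at 10 mJ/cm2. It measured 39.0, 109, 66.1, 48.1 and 82.5 CPM at 20 mJ/cm2 and 76.2, 73.1, 81.6, 88.3 and 104 CPM at 40 mJ/cm2. The lowest 2 doses looked alike, the 20 mJ/cm2 animals spread from the lower groups' level to above the 40 mJ/cm2 group, and all 5 animals at 40 mJ/cm2 lay above all 10 at the lowest 2 doses. The share of all genes separated in this way is not given here. Nfkbiz was also picked by its slope over the same animals, so the separation only describes that slope. The group means were 44.8 ± 8.91, 45.4 ± 9.25, 68.9 ± 27.9 and 84.7 ± 12.3 CPM from 5 to 40 mJ/cm2. Sham animals, left out of this test, averaged 53.4 ± 25.2 CPM. Nfkbiz rose with dose by 0.33 ± 0.07 log2 units per doubling (95% interval 0.18 to 0.48, edgeR adjusted p = 0.021). The last 10 mJ/cm2 value comes from the library of 0.18 M counts, and without that library the slope was 0.33 (edgeR adjusted p = 0.018).

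The slope of Nfkbiz was positive in each of the 20 fits that left out 1 animal, between 0.30 and 0.36, and was called in 18 of them. Without replicate 4 of 5 mJ/cm2 the adjusted p was 0.0546 and without replicate 5 of 40 mJ/cm2 it was 0.0868. Within the R1_001 libraries the slope was 0.26 (n = 12, adjusted p = 0.193) and within the R1 libraries it was 0.43 (n = 8, adjusted p = 1), so neither subset alone passed the threshold. Both of these checks were added after seeing the data. Slopes of Nfkbiz at later times were 0.25 ± 0.08 at 24 h (adjusted p = 0.174) and 0.22 per doubling at 48 h (adjusted p = 0.201).

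**Figure D3:**
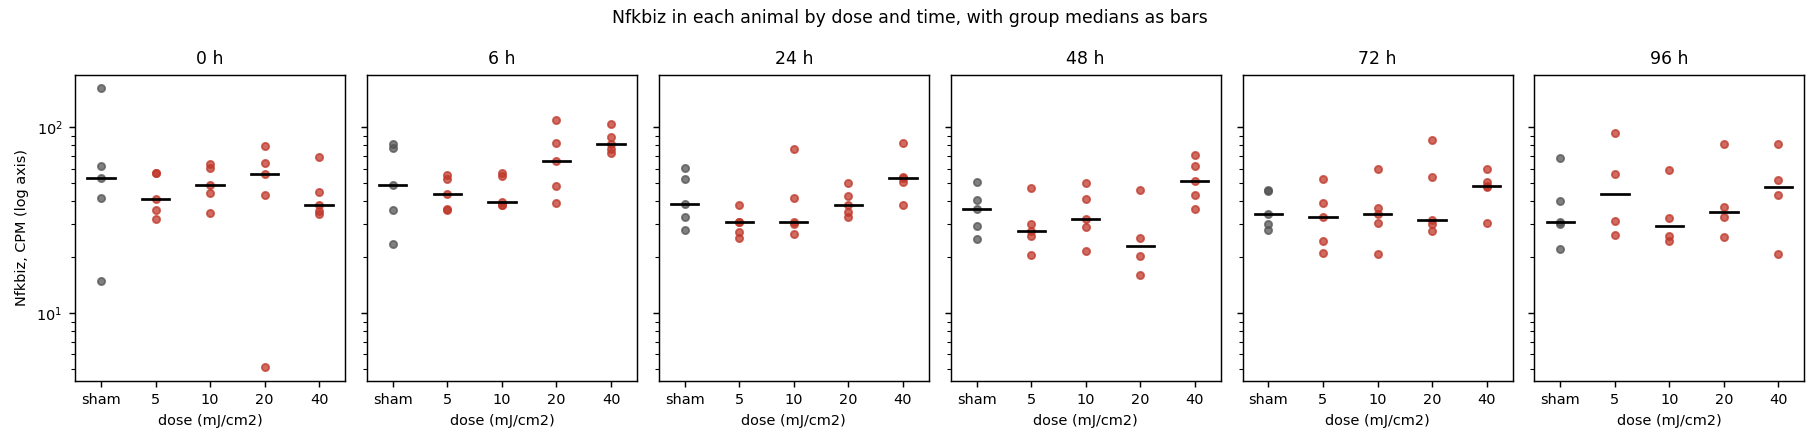
Nfkbiz level (CPM, log axis) in each animal by dose in mJ/cm2, with sham at the left, at each time in hours. Points are animals and bars group medians. At 6 h the 40 mJ/cm2 animals lie between 73.1 and 104, above all animals at 5 and 10 mJ/cm2, while sham animals spread from 23.5 to 81.1. The share of all genes separated like this from 5 and 10 mJ/cm2 is not given here.

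Other slopes at an unadjusted p under 0.05 were those of the receptor gene Tnfrsf1b, 0.32 ± 0.10 per doubling at 48 h (edgeR adjusted p = 0.0633, DESeq2 adjusted p = 0.0346) and 0.31 at 72 h (edgeR adjusted p = 0.579), and of Tnf at 72 h, 0.72 ± 0.22 (adjusted p = 0.168). Tnfrsf1b at 48 h averaged 20.7 ± 6.53, 19.5 ± 6.55, 20.6 ± 2.58 and 41.5 ± 12.1 CPM from 5 to 40 mJ/cm2. The means of the lower 3 doses lay within each other's SDs, and that of the highest dose lay above them.

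The 40 mJ/cm2 effect of each gene was compared between successive times. None of the 50 gene and step combinations was called (0.38% of all genes over the 5 steps together), and DESeq2 called none either (0.768% of all genes). At an unadjusted p under 0.05 there were 5 of 50, against 5.43% of all genes. The effect at 6 h exceeded that at 0 h by 1.22 log2 units for Nfkbiz (edgeR adjusted p = 0.257) and by 1.16 for Tnfaip3 (0.433). For Nfkbia the effect at 24 h minus that at 6 h was -0.67 (0.798) and that at 96 h minus that at 72 h was 0.74 (0.577), and for Tnf that at 72 h minus that at 48 h was 2.06 (1). A peak of these genes at 6 h is therefore a description of the estimates and did not pass a test of the difference between times.

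Other genes of the pathway were called at 40 mJ/cm2. Of all genes tested, 2.14% rose and 2.75% fell at 6 h, 1.65% and 1.26% at 24 h, 3.97% and 3.76% at 48 h, 1.04% and 0.22% at 72 h, and 0.118% and 0% at 96 h, and the list counts stand beside these shares. Of 20 receptors and ligands tested, 1 rose at 6 h, 3 at 48 h and 1 at 72 h, and none fell at any time. The interleukin 17 receptor gene Il17ra rose at 6 h to 72.0 ± 23.6 CPM at 40 mJ/cm2, against 29.3 ± 5.01 CPM in sham skin (log2 fold change 1.33 ± 0.25, edgeR adjusted p = 0.00244). At 48 h Il17ra rose by 1.16, the interleukin 1 receptor gene Il1r1 by 1.12 and the cytokine gene Il1b by 2.97 ± 0.50, with Il1b at 55.5 CPM at 40 mJ/cm2 and 6.81 CPM in sham skin. At 72 h Il1b averaged 115 ± 166 CPM at 40 mJ/cm2 and 4.15 CPM in sham skin (4.6 ± 0.84). Tnf and Tnfrsf1b, the ligand and receptor among the 10, were uncalled in the same fits.

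Of 30 adaptors and kinases, 1 rose at 6 h and 2 at 48 h, close to the shares of all genes. The adaptor gene Myd88, which links interleukin 1 and Toll-like receptors to the kinases, rose by 0.98 ± 0.27 at 6 h (68.2 CPM at 40 mJ/cm2, 35.2 CPM in sham skin) and by 0.82 at 48 h, and the kinase gene Irak4 rose by 0.55 at 48 h. Of the 6 other Rel and inhibitor of kappa B genes, Bcl3, a nuclear relative of IkBz that acts with p50 and p52, rose at 6 h to 16.6 ± 6.0 CPM at 40 mJ/cm2, against 4.25 ± 2.66 CPM in sham skin (2.03 ± 0.45, adjusted p = 0.0104). Bcl3 was also higher at 48 h by 1.66 ± 0.26 (22.2 against 6.99 CPM), and Nfkbie, which encodes IkBe, rose by 0.87 ± 0.20 at 48 h (9.83 against 5.37 CPM). Of 25 other negative regulators, with 1 call at each of these times and so also close to the shares of all genes, only Commd1 at 6 h (-0.71 ± 0.19, a fall) and Zc3h12d at 48 h (1.41, a rise) were called. Zc3h12d is a relative of the Regnase-1 gene Zc3h12a.

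Of 25 inflammatory targets tested, 5 rose at 6 h, 3 at 24 h, 11 at 48 h and 6 at 72 h, and none at 0 or 96 h, beside the 2.14%, 1.65%, 3.97% and 1.04% of all genes that rose at 6, 24, 48 and 72 h. Their median log2 fold change was 1.06 at 6 h, 0.67 at 24 h, 0.90 at 48 h, 0.92 at 72 h and 0.68 at 96 h, beside 0.71, 0.09, 0.17, 0.29 and 0.19 for the 10 feedback genes. At 6 h Tnfaip6, a hyaluronan-binding protein gene, rose by 2.43 ± 0.44 (75.2 CPM at 40 mJ/cm2, 14.1 CPM in sham skin), the adhesion molecule gene Icam1 by 1.14 ± 0.23 (73.8 against 34.1 CPM) and the iron-binding protein gene Lcn2 by 1.31. At 48 h Lcn2 rose by 4.29 ± 0.42 (46.8 against 2.3 CPM), the cytokine gene Il6 by 4.63 ± 0.64, the chemokine gene Cxcl1 by 3.88 ± 0.63 and Tnfaip6 by 1.87. At 72 h the chemokine gene Cxcl2 rose by 5.88 ± 1.07 and Lcn2 by 4.67. Their 40 mJ/cm2 means at 72 h were 35.4 ± 57.8 and 52.3 ± 66.7 CPM, with SDs above the means. These comparisons share the sham and 40 mJ/cm2 animals with those of the 10 genes, and the difference between the lists was not tested. The lists were also chosen with earlier results of these data known.

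**Figure D4:**
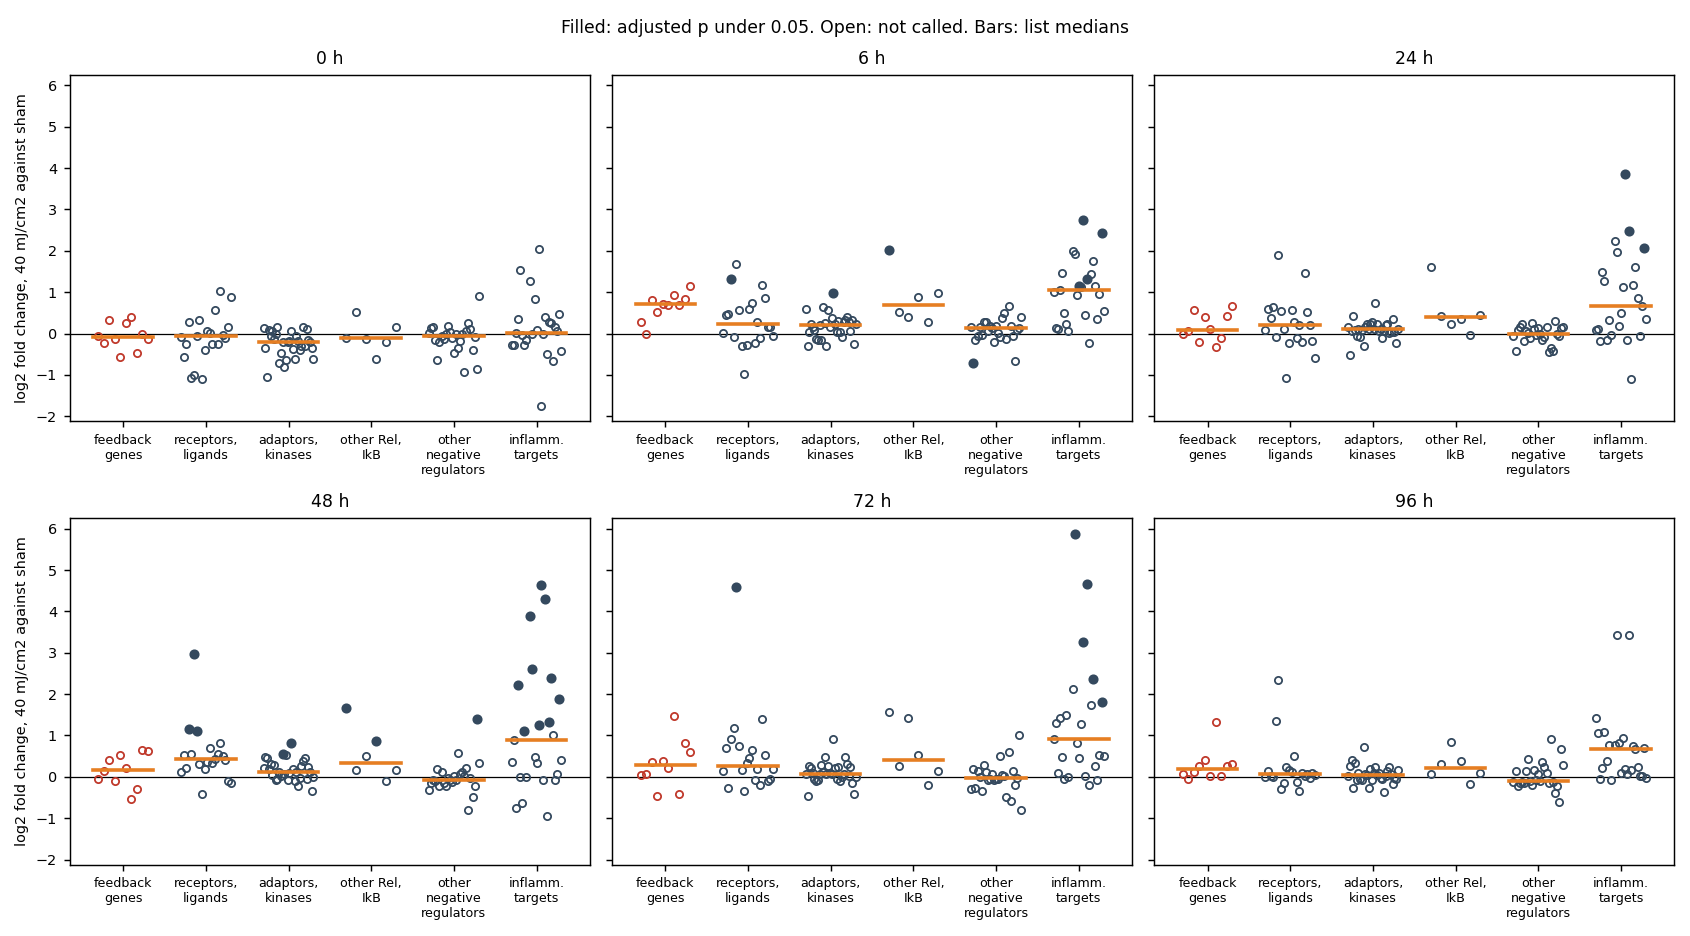
Log2 fold change at 40 mJ/cm2 against sham for the 10 feedback genes and for the 5 other lists of pathway genes, by time in hours. Points are genes, filled where called at an adjusted p under 0.05, and bars are list medians. Filled points appear among the inflammatory targets from 6 to 72 h, up to 11 at 48 h, and none among the 10 feedback genes. Csf3 is counted in the median of the targets but not drawn.

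Markers of several cell types moved at the same times. Of 10 neutrophil markers tested (12 listed), 8 rose at 48 h and 8 at 72 h, and none at 6, 24 or 96 h. The summed level of the neutrophil list was 186 to 229 CPM at 40 mJ/cm2 and 158 to 233 CPM in sham skin at 6 h, 78.6 to 369 and 106 to 166 CPM at 48 h, and 76.6 to 967 and 106 to 156 CPM at 72 h. In sham skin at 48 h none of the 8 that rose averaged above 4.93 CPM (Csf3r). The sum there thus came mostly from listed markers that were not called, and it is a poor measure of the 8. At 48 h Ly6g and Ngp were at 0 in all 5 sham animals and none of the 12 was at 0 at 40 mJ/cm2, and at 72 h Ngp was at 0 in all 40 mJ/cm2 animals and Ly6g in all sham animals. Of 12 monocyte and macrophage markers, Cd14 rose at 6 h and 6 rose at 48 h, with sums of 1160 to 1530 CPM at 40 mJ/cm2 and 967 to 1450 CPM in sham skin at 6 h and 1100 to 2210 against 999 to 1490 CPM at 48 h. Of 10 T cell markers, 2 fell at 6 h, 3 at 24 h, 3 at 48 h and 2 at 72 h, while Thy1, which fibroblasts also express, rose at 48 h. Of 10 keratinocyte markers, 1 rose at 6 h, 1 at 24 h, 2 at 48 h and 1 at 96 h, with list medians of -0.12, 0.09, 0.22 and 0.66 on the log2 scale at these times, and 2 of 6 fibroblast markers, the collagen genes Col1a1 and Col1a2, fell at 48 h. Beside these counts, 2.14%, 1.65%, 3.97%, 1.04% and 0.118% of all genes rose at 6, 24, 48, 72 and 96 h. The shares that fell were 2.75%, 1.26%, 3.76%, 0.22% and 0%.

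Across animals the 10 genes varied in groups. For each of 143 libraries of at least 1 M counts, the deviation of log2 CPM from its fitted value was taken. The fit had a mean for each dose and time group and 1 term for the title ending, so that dose and time do not enter. Of the 45 pairs of genes, 36 were correlated past an adjusted p of 0.05 (permutation test with 100000 resamples, Benjamini-Hochberg over the 45 pairs), 29 of them positively and 7 negatively. The smallest p that these permutations can give is 1e-05, and its adjusted value is 2.37e-05. Deviations were permuted freely over all libraries although they sum to 0 within each group, which makes the p-values too small. Pairs near the threshold, such as Nfkbia and Relb (r = 0.18, adjusted permutation p = 0.0436), are therefore uncertain.

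Tnfrsf1b, Zc3h12a, Relb, Nfkb1 and Nfkb2 varied together, with Pearson's r between 0.76 and 0.93 in all 10 of their pairs and between 0.54 and 0.95 within the libraries of 1 title ending. These 5 genes were put together after seeing the correlations. The highest was that of Relb and Nfkb2, the genes of the non-canonical dimer, with r = 0.93 and Spearman's rho = 0.92 (permutation p = 1e-05 for each), and r = 0.92 without the 2 libraries farthest from the median. Zc3h12a and Nfkb2 had r = 0.91, with rho = 0.91 and r = 0.91 without the 2 farthest. Tnf was correlated with each of the 5 at r between 0.51 and 0.57.

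Nfkbia, Nfkbiz and Tnfaip3 formed a looser second group. Nfkbia and Nfkbiz had r = 0.57 (rho = 0.53, 0.54 without the 2 farthest libraries), Nfkbia and Tnfaip3 had r = 0.51 (rho = 0.60, 0.54) and Nfkbiz and Tnfaip3 had r = 0.50 (rho = 0.57, 0.50), each at a permutation p of 1e-05. Birc3 was correlated with Nfkbiz at r = 0.46 (rho = 0.46). Nfkbiz was negatively correlated with Relb (-0.33), Tnfrsf1b (-0.32), Nfkb2 (-0.28) and Nfkb1 (-0.27). With Zc3h12a, the fifth gene of the first group, Nfkbiz had r = -0.12 (adjusted permutation p = 0.164). Birc3 was negatively correlated with Relb (-0.31), Nfkb2 (-0.30) and Zc3h12a (-0.22). The 2 inhibitor genes and the A20 gene thus deviated with each other, and Nfkbiz deviated against 4 of the 5 genes of the first group.

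These deviations moved with the mitochondrial share of counts and with the marker levels of the samples. The mitochondrial share of counts was correlated with Relb at r = -0.84 (rho = -0.86, -0.87 without the 2 farthest libraries), with Nfkb1 and Nfkb2 at -0.78, with Tnfrsf1b at -0.75 and with Zc3h12a at -0.70, but with Nfkbiz at 0.50 (rho = 0.39). Each of these had a permutation p of 1e-05 (adjusted 2.82e-05 over 110 relations of 10 genes and 11 measures, of which 67 passed). Relations near the threshold are uncertain here too, for the reason given for the pairs. Within title endings the r of Relb with that share was -0.75 and -0.92 in R1_001 and R1 libraries. The level of endothelial markers was correlated with the 5 genes at r between 0.70 and 0.80 and that of muscle markers at r between 0.59 and 0.75. The level of keratinocyte markers had r = 0.75 with Zc3h12a, 0.71 with Nfkb2, 0.70 with Relb, 0.69 with Nfkb1 and 0.52 with Tnfrsf1b. Tnfrsf1b had r = 0.71 with monocyte and macrophage markers, and Tnf had r = 0.50 with those and 0.43 with neutrophil markers. Over all 143 libraries, log2 sequencing depth was correlated with none of the 10 genes at more than 0.10 in size, but within title endings the sign differed. In R1_001 and R1 libraries its r was -0.31 and 0.29 with Nfkb2, -0.29 and 0.25 with Zc3h12a and -0.24 and 0.35 with Relb. Taking the longest coding transcript of each gene, those of Relb, Nfkb2 and Zc3h12a had the highest GC content, 61.1%, 59.4% and 57.1%, and Birc3 the lowest, 46.6%. The part of these measures in the correlations between the genes was not tested.

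**Figure D5:**
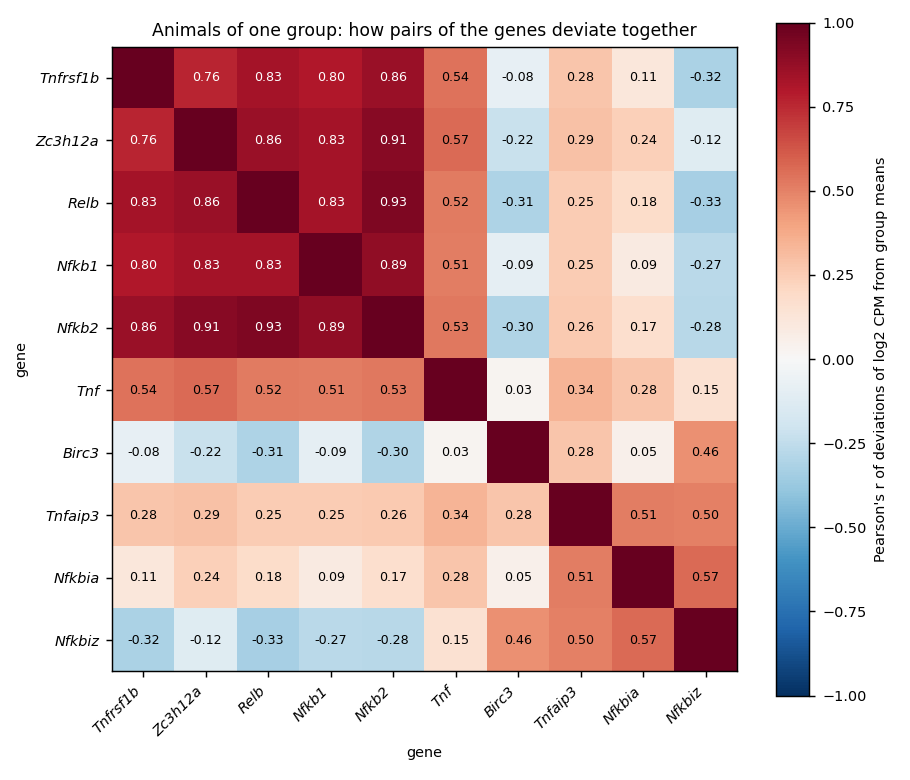
Pearson's r over 143 libraries between the 10 genes, on both axes, of the deviations of log2 CPM from a fit of dose and time groups with a title ending term. Colour and printed values give r, on a scale with ends at -1 and 1. Tnfrsf1b, Zc3h12a, Relb, Nfkb1 and Nfkb2 form a block at 0.76 to 0.93, while Nfkbia, Nfkbiz and Tnfaip3 form a second, at 0.50 to 0.57.

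Over the 30 group means, the genes whose log2 CPM pattern was most like the mean profile of the 10 were Ddx24 (Pearson r = 0.805), Rrad (0.771), Plaur (0.769), Stat3 (0.766), Has1 (0.76) and Il1b (0.753). For the single genes the closest were Cd83 for Tnf (0.74), B4galt5 for Tnfrsf1b (0.93), Tiparp for Birc3 (0.948), Zc3h12c for Tnfaip3 (0.73) and Tinagl1 for Zc3h12a (0.886). They were Klf4 for Nfkbia (0.854), Atp6v1b2 for Nfkbiz (0.868), Meis3 for Relb (0.929), Cmip for Nfkb1 (0.839) and Mvp for Nfkb2 (0.935). The group means share libraries and sample make-up, and these values are descriptions without a test.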

How the data were processed

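Poly(A) RNA from 300 ng of total RNA of mouse dorsal skin was made into stranded libraries and read as single 75-base reads, per the labels' protocols. Expected counts per gene were deposited by the authors as a single table, in which 12.57% of the values are not whole. Per the submitters' processing notes, reads were handled with STAR 2.7.10a, fastp 0.23.0 and bcl2fastq 2.20.422, and DESeq2 1.36.1 and the build GRCm39 were used. No source used here names the counting program or its use of strand, so overlapping genes are uncertain. Counts were rounded, and genes were kept by filterByExpr and tested with edgeR 4.0.16 (quasi-likelihood F test, TMM scaling) in 1 fit per time of all 5 doses, with the title ending as a covariate. P-values were adjusted by Benjamini-Hochberg within each comparison and called under 0.05. Intervals are 95% Wald intervals, except that the p of genes with few counts can differ from them. Levels are CPM, counts scaled to 1 M on TMM sizes, and log2 CPM uses a prior count of 2. Symbols came from GENCODE vM21, which gave one to 52083 of 55416 identifiers, and the rest held 0.0906% of the counts. Depth ran from 0.18 to 64.59 M counts (M for mega) per library. The fits were tested on simulated data. The alternatives were DESeq2 1.42.0, RLE scaling, no filter, no title ending, 1 ending at a time, other sets of libraries, muscle and mitochondrial covariates, and each animal left out. Values per animal are given at 48 h for every gene, since none was called, and those at other times were chosen after seeing the values. From the lists, called genes were named, at most 4 per list and time. The members and lists were chosen with earlier results of these data known.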

Additional observations from a re-analysis of the deposited data

Results flagged for a closer look

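The 40 mJ/cm2 and sham groups of the 10 genes were searched for a single animal far from the rest of its group, and 7 of 120 groups held one by Dixon's gap-to-range ratio at its 95% level, which chance passes in about 1 of 20 groups. Tnf was 14.6 CPM in replicate 4 of 40 mJ/cm2 at 72 h, against 0.804 to 3.4 CPM in the other 4 animals, and without it the log2 fold change at that time was 0.18 instead of 1.48. Zc3h12a was 28.8 CPM in replicate 1 of 40 mJ/cm2 at 48 h, against 17.0 to 19.0 CPM in the others, and these too lay above all sham animals. Tnf was 1.28 CPM in replicate 3 of 40 mJ/cm2 at 0 h, below the other 4 at 1.83 to 2.01 CPM. In sham skin at 0 h, Nfkbia was 195 CPM in replicate 3, the library with a mitochondrial share of 34.8%, against 76.4 to 96.6 CPM in the others. In the same group Tnfaip3 was 119 CPM in replicate 5, against 12.3 to 27.4 CPM in the others, and Tnf was 3.21 CPM, against 0.623 to 1.24 CPM. Nfkbia was 87.5 CPM in replicate 4 of sham at 96 h, against 53.5 to 62.8 CPM in the others.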

How the results depend on the processing

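Among 377 refitted counts of called genes, 357 stayed the same and 20 moved. With DESeq2 the count was 1 at 20 mJ/cm2 (Birc3 at 48 h) and 2 for the slopes over dose (Nfkbiz at 6 h, Tnfrsf1b at 48 h). With the muscle marker level as a covariate it was 4 at 40 mJ/cm2 at 24 h, 4 at 48 h and 1 at 72 h, 1 at 20 mJ/cm2 and 1 in sham skin over time. With the mitochondrial share as a covariate, added after seeing the data, it was 1 at 40 mJ/cm2 at 48 h, 2 for the slopes (Nfkbiz and Nfkb2 at 6 h) and 1 for the steps between times (Zc3h12a from 0 to 6 h). Without the title ending it was 1 at 20 mJ/cm2, in 1 fit of all libraries 1 at 40 mJ/cm2 at 72 h and 1 at 20 mJ/cm2, and in a fit of only the 2 groups 3 at 40 mJ/cm2 at 48 h. Slopes within R1_001 or R1 libraries at 6 h gave 0 each. Leaving out 1 animal at a time (145 fits) gave 0 to 2 at 20 mJ/cm2 and 0 in every such fit at 40, 10 and 5 mJ/cm2, and left 0 to 1 slopes at 6 h. The cause of these moves was not tested, and the muscle and mitochondrial measures themselves differ between the groups. Shares of all genes called are given above for the main fit and for DESeq2 only, so the other counts have no background beside them.

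Of 1250 refitted values of single genes, 1143 kept direction and call, 93 changed sign while uncalled in both fits, and 14 gained a call. These are the 40 mJ/cm2 effects, none of which was called to begin with. No paired analysis was possible because the labels number the animals individually and the replicate numbers were given in accession order. Depth limits Tnf most, at a median of 17 counts per library. Zc3h12a, Tnfaip3 and Relb are limited by a wide spread between libraries, and the part of depth in that spread was not tested.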
